A study of Mus musculus with 40 samples.

Results

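The collagen chain genes described here are the 42 symbols, of 29912 listed at both stages, whose name is Col, a type number, the letter a and a chain number. They were taken by name and not by any measured value, and they stand for 26 collagen types. By class they comprise 11 fibrillar, 6 basement membrane, 5 beaded filament, 9 FACIT, 3 hexagonal network, 2 multiplexin and 4 transmembrane genes, with Col7a1 of the anchoring fibrils and Col28a1 apart. Their RNA was measured in 20 immortalised lines of brown preadipocytes, the precursors of the fat cells that burn lipid for heat, from C57BL/6 mice at passage 6 to 12. Each line gave 1 poly(A)-selected library in growth medium, the undifferentiated group, and 1 library at day 8, after an induction mix of indomethacin, IBMX, dexamethasone, insulin and T3 and then insulin and T3 alone. The labels name the lines by a letter and a number, do not say how they were immortalised or whether they came from separate animals, and show 1 culture of each line per stage. The p-values of fits without a term for line are therefore set against the spread between these 20 lines, culture and library preparation included. Fits with a term for line are set against the spread that the stages of a line do not share. Correlations over lines are set against shuffled lines.

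Collagens are trimers of polypeptide chains wound into a helix, and many types need chains from more than 1 gene. Fibrillar collagens form the tensile fibrils of the matrix, type IV collagen forms the sheet of the basement membrane that surrounds each mature fat cell, and type VI collagen forms beaded filaments next to it. FACIT collagens coat fibrils, and multiplexins sit between fibrils and basement membrane. Adipocyte precursors make much fibrillar matrix, and fat cells build a basement membrane as they mature.

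Total counts on genes ran from 19461042 to 27971548 in undifferentiated and from 27058810 to 42907513 in differentiated libraries, and the collagen genes took 0.484% to 1.77% and 0.506% to 3.14% of them. Levels are counts scaled to library size with TMM factors (CPM), and the limit that a count of 0 allows, 3 counts, lies between 0.0699 and 0.154 CPM in all 40 libraries, for counting error only. Reads without a gene made up 6.53% to 7.89% of tallied reads before and 4.35% to 5.27% after differentiation, so an effect of the counting and one of the stage cannot be told apart. Lines C6 and D5 stood apart at day 8. The mean log2 CPM over 18 adipocyte genes such as Adipoq, Plin1 and Fabp4, called the adipocyte score below, was 4.41 in C6 and 7.37 in D5 against 8.59 to 9.76 in the other 18 lines, and the results they bear on most are given with and without them.

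The collagen classes differed in how their summed levels compared between the stages. All collagen genes together gave 11199 ± 4120 CPM (SD, n = 20) before and 13519 ± 7605 CPM at day 8, and 11 lines were higher and 9 lower at day 8. The 2 multiplexin genes summed to 56.8 ± 49.2 CPM before and 570 ± 300.3 CPM at day 8, with all 20 lines higher at day 8. The beaded filament sum was 1505 ± 899 CPM before and 2784 ± 997 CPM after, higher in 16 lines. The FACIT sum was 676 ± 321 CPM before and 234 ± 206 CPM after, lower in 18 lines, and the hexagonal network sum was 322 ± 78.7 and 75.4 ± 66.2 CPM, lower in 19. The fibrillar sum, at 5825 ± 2717 and 7212 ± 6198 CPM, was higher in 9 lines, and the basement membrane sum, at 2749 ± 791 and 2606 ± 701 CPM, in 8. Without C6 and D5 the fibrillar sum was 5407 ± 2524 CPM before and 5541 ± 3649 CPM after (n = 18), so most of the difference between its means came from these 2 lines. The sum of all collagen genes was then 10836 ± 4185 and 11645 ± 5236 CPM, the FACIT sum 657 ± 333 and 174 ± 87.5 CPM, the beaded filament sum 1448 ± 932 and 2603 ± 874 CPM and the hexagonal network sum 334 ± 74.3 and 58.2 ± 40.3 CPM. These are bulk cultures, in which fewer cells of a type and less RNA per cell cannot be told apart.

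**Figure D1:**
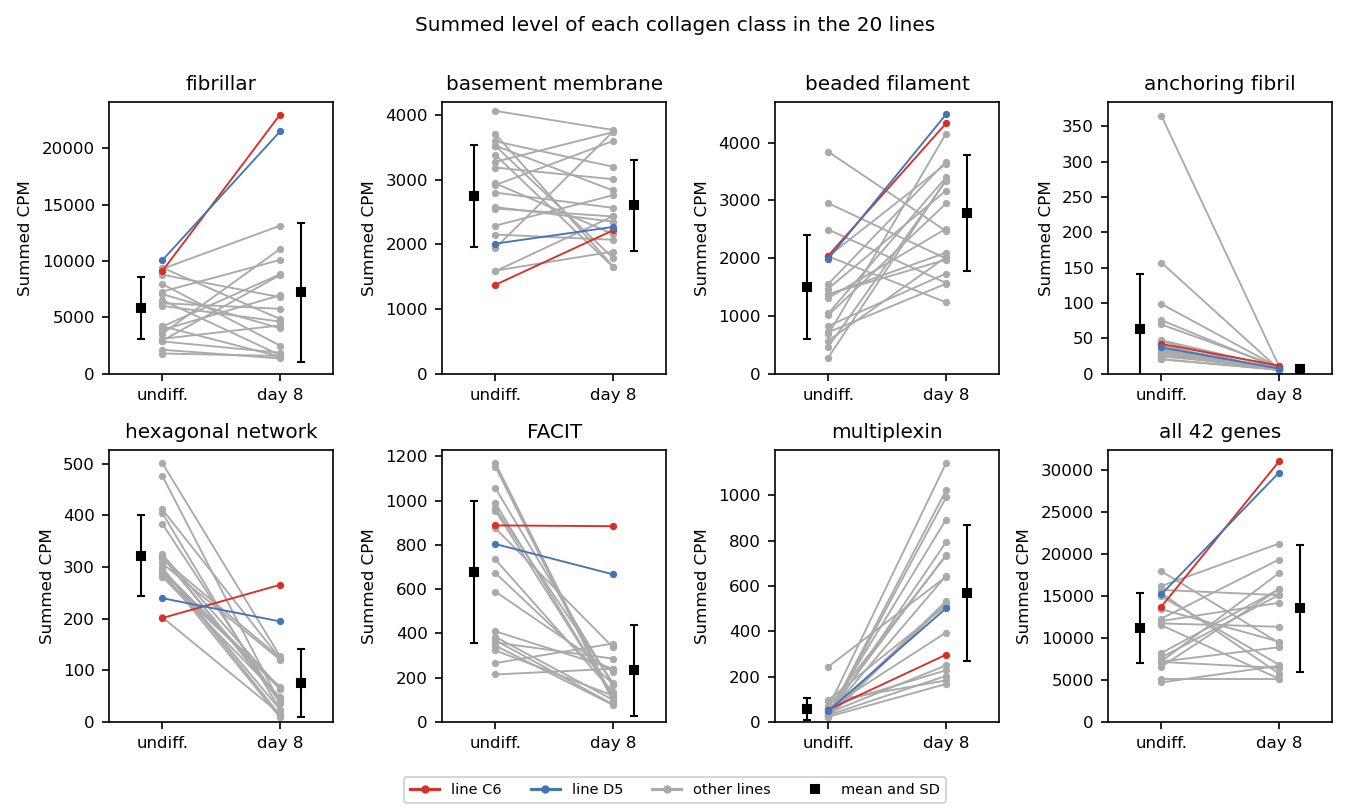
Summed level (CPM, linear axes from 0) of 7 collagen classes and of all 42 genes in each line, undifferentiated (undiff.) and at day 8, with the libraries of a line joined; black squares and bars are the mean and SD of 20 lines. All 20 lines are higher at day 8 in the multiplexin panel and lower in the anchoring fibril panel. At day 8 lines C6 and D5 lie above the other 18 lines in the fibrillar, beaded filament, hexagonal network, FACIT and total panels. The margin is small for the beaded filament sum, at 4334 CPM in C6 and 4490 in D5 against 4158 in C2.

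Of the 42 genes, 33 passed the filter on low counts. After differentiation 15 of them were higher, 9 lower and 9 not called at an adjusted p under 0.05 (quasi-likelihood test of edgeR, Benjamini-Hochberg over every gene in the fit). Of the 14081 genes tested, 82.1% were called, 43.1% higher and 39% lower, so the 45.5% of collagen genes that were higher were near that share and the 27.3% that were lower were below it. The median log2 change was 0.40 over the 33 collagen genes and 0.04 over all tested genes. With the shared line of each library pair entered as a replicate block, 15 were higher (43.9% of all tested) and 10 lower (41.7%), where 85.6% of all tested genes were called. Without lines C6 and D5, 14 were higher (43.7% of all tested) and 10 lower (39.3%). Col6a3 lost its call in the blocked fit, and Col16a1 and Col17a1 gained one as lower. Log2 changes between the stages given below by gene are from the fit without the block unless stated. The block moved some of them, Col14a1 from 4.29 to 3.07, Col5a1 from -0.63 to -0.94 and Col1a1 from -0.20 to -0.44. Col1a1 was called in neither fit. In 4 genes, Col2a1, Col7a1, Col8a1 and Col10a1, every day 8 library lay below every undifferentiated library, against 9.86% of all tested genes, and no collagen gene had all day 8 libraries above, against 12.3%. The level was higher at day 8 in all 20 lines for 8 of the 33 genes (24.6% of all tested) and lower in all 20 lines for 5 (21.9%).

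**Figure D2:**
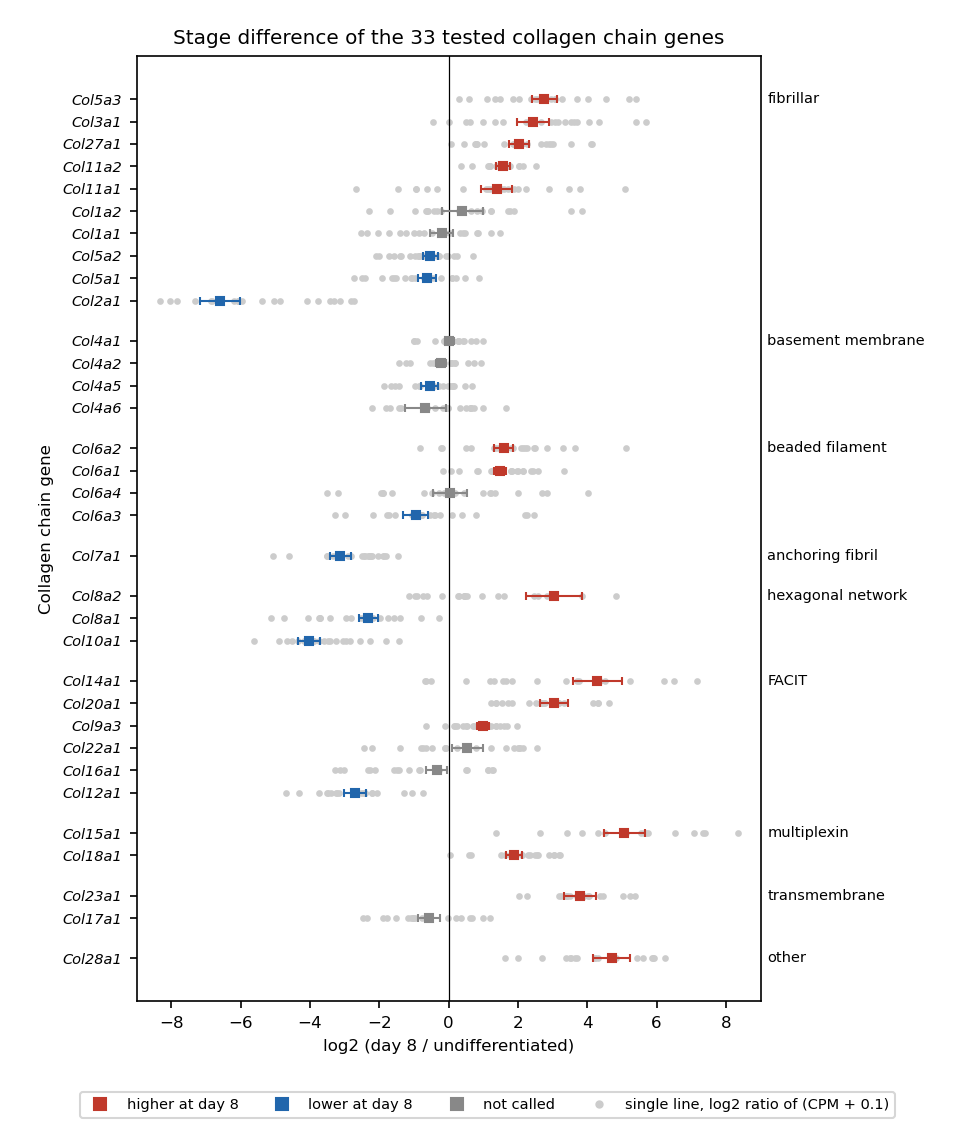
Fitted log2 difference between day 8 and the undifferentiated stage for the 33 tested genes, by class, with its standard error (squares and bars, colour by edgeR's call), over the log2 ratio of each of the 20 lines (grey dots, 0.1 CPM added to both levels). The axis ends short of the highest ratios of Col15a1, which are not drawn. Col15a1 rises most at 5.08 and Col2a1 falls most at -6.59. Col1a1, Col1a2, Col4a1 and Col4a2 are not called, at -0.20, 0.40, 0.02 and -0.20, and Col1a2 has a wide standard error of 0.60.

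Among the fibrillar genes, neither chain of type I collagen was called, while the chains of types II, III and V were. Col1a1, which encodes the chain present as a pair in type I collagen, was at 306 to 3735 CPM before (median 1960) and at 350 to 6452 CPM at day 8 (median 1169), with C6 the highest at day 8 and wide overlap. Its log2 change was -0.20 (SE 0.33, edgeR adjusted p = 0.578). Col3a1, the chain of type III collagen, which shares fibrils with type I in soft tissue, ranged from 17.4 to 1012 CPM before (median 311) and from 319 to 7824 CPM at day 8 (median 1399). It rose by 2.44 on the log2 scale (SE 0.47, edgeR adjusted p = 1.08e-05), with 19 lines higher and line D4 alone lower. The groups overlapped, because the lowest day 8 lines lay within the undifferentiated range.

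Type V collagen, which starts fibrils and limits their width, had chains that moved in opposite directions. Col5a1 was at 406 to 1050 CPM before (median 533) and at 89.7 to 1129 CPM after (median 342), with C6 and D5 the highest after and 15 lines lower. It fell by 0.63 on the log2 scale (SE 0.25, edgeR adjusted p = 0.0229). Col5a2 was at 793 to 2047 CPM before (median 1232) and at 283 to 2653 CPM after (median 768), lower in 17 lines. Its log2 change was -0.53 (SE 0.22, edgeR adjusted p = 0.0248), and the adjusted p was 0.051 without line B6. The third chain, Col5a3, went the other way in every line, from 6.84 to 124 CPM before (median 27.1) to 19.2 to 494 CPM after (median 237), a log2 rise of 2.77 (SE 0.36, edgeR adjusted p = 4e-09). Per kilobase of transcript, Col5a1 exceeded Col5a3 by a median factor of 15.8 before and 1.24 at day 8.

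The cartilage fibril genes split. Col2a1, the chain of type II collagen of cartilage, was at 4.29 CPM in line B6, at a median of 60.4 CPM and at 669 CPM in line D4 before differentiation, and at 0.478 to 2.80 CPM (median 1.27) afterwards. It fell by 6.59 on the log2 scale (SE 0.58, edgeR adjusted p = 1.32e-13), in all 20 lines and with no overlap, the largest change among the 33 tested collagen genes. Of 9 chondrocyte markers, 8 were listed in the files and 5 tested, 3 of them higher and 2 lower, with a median log2 change of 2.75. The summed level was 10.3 to 64.8 CPM before and 16.6 to 59.2 CPM after. Among the 8, Acan, Matn1 and Hapln1 had means of 0.0446, 0.0165 and 0.00236 CPM before differentiation, below the limit of 3 counts, where Col2a1 had a mean of 130 CPM. Sox9, a transcription factor of Col2a1 in cartilage, was at 35.3 ± 12.9 and 19.7 ± 14.3 CPM.

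Col11a1, a chain of type XI collagen, was at 0.606 to 23.9 CPM before (median 3.77) and at 0.783 to 92.0 CPM after (median 9.45), with C6 at 92.0 and D5 at 58.1 CPM above the 30.9 CPM of the next line. Its log2 rise of 1.39 (SE 0.45, edgeR adjusted p = 0.0053) became 0.62 without C6 and D5 (adjusted p = 0.152). Its partner Col11a2 was higher in all 20 lines, from 0.807 to 4.76 CPM (median 2.23) to 2.94 to 14.4 CPM (median 7.09), and C6 and D5 were among its 3 lowest lines at both stages. Col27a1 was also higher in all 20 lines, with a mean of 2.86 ± 1.83 CPM before and 11.6 ± 7.90 CPM after. Its log2 change was 2.02 (SE 0.29, edgeR adjusted p = 4.04e-08).

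Col1a2, the other chain of type I collagen, separated the lines rather than the stages. In lines A2, A5, B5 and B6 it was at 1.19, 2.70, 41.98 and 40.5 CPM before differentiation and at 14.9, 40.6, 27.7 and 30.6 CPM at day 8. In the other 16 lines it was never below 337 CPM before or 318 CPM after, and it reached 2529 CPM in D1 before and 5450 CPM in C6 after. Before differentiation the count was 32 reads in A2, 55 in A5, 1139 in B5 and 935 in B6, against at least 8250 in any undifferentiated library of the 16. Col1a1 in the same 4 lines was at 1146, 708, 306 and 1909 CPM before and at 641, 437, 408 and 470 CPM after, so the first chain was present where the second was low. Per kilobase of transcript, the ratio of Col1a1 to Col1a2 was 870 in A2, 237 in A5, 42.5 in B6 and 6.58 in B5 before, against a median of 1.39 over all 20 lines. At day 8 it was 38.7, 9.72, 13.9 and 13.3 in these lines in the same order, against a median of 0.99. The stage change of Col1a2 was not called (log2 change 0.40, SE 0.60, edgeR adjusted p = 0.536), and its difference between lines was, with an adjusted p of 0.000546. The 4 lines were noticed in the data, so their low level is a description with no test of its own. Their Col3a1 levels, at 41.3, 17.4, 28.1 and 310 CPM before and at 506, 355, 470 and 481 CPM after, were among the lowest except in B6 before differentiation.

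The promoter windows of Col1a2 and Col3a1 are shown because they belong to the gene that split the lines and to the abundant fibril chain that rose. They run from 250 bases before to 50 bases after the start site, come from RefSeq on build GRCm38.p6, which is not the build of the count files, and are printed along the gene's strand with CCAAT boxes, or ATTGG for the box on the other strand, in capitals. Col1a2 lies on the plus strand at chr6:4505368-4505667, and Col3a1 on the plus strand at chr1:45311288-45311587.
Col1a2: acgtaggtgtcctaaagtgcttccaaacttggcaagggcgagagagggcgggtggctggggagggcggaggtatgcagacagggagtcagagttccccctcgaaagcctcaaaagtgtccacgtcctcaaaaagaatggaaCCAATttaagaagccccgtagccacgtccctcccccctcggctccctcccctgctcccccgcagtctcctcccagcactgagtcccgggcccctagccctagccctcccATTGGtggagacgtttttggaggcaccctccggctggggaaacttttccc
Col3a1: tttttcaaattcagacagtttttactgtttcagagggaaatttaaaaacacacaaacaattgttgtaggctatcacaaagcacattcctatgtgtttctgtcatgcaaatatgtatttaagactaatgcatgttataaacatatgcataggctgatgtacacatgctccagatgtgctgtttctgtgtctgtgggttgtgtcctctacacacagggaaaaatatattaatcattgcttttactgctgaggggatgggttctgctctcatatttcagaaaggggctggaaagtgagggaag
The Col1a2 window holds 2 CCAAT boxes and 13 CpG dinucleotides, and the Col3a1 window holds neither. The letters CCAAT, searched on both strands, occur in 37.41% of 32851 mouse promoter windows and in 13 of the 37 windows that the table holds for 34 collagen genes, and the median window has 7 CpG dinucleotides. A match is a description of letters and says nothing of a factor.

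The main basement membrane chains, which form the common type IV network, were not called. Col4a1 was at 738 to 2374 CPM before (median 1708) and at 1065 to 2450 CPM after (median 1615), and Col4a2 at 459 to 1477 CPM (median 986) and 459 to 1259 CPM (median 782). The log2 changes were 0.02 (SE 0.13, edgeR adjusted p = 0.891) and -0.20 (SE 0.14, adjusted p = 0.188), and line C6 was the lowest undifferentiated line for both. Col4a5, a chain of the minor type IV network, was at 31.4 to 220 CPM before (median 119) and at 33.3 to 157 CPM after (median 76.0). Its log2 change of -0.54 (SE 0.25, edgeR adjusted p = 0.0451) was no longer called on leaving out any 1 of 12 lines, with adjusted p up to 0.108, and it held with the line as a block (adjusted p = 0.00532). Col4a6, which forms a trimer with Col4a5, ranged from 0.133 CPM in C2 to 25.7 CPM in C4 before and from 0.0276 CPM in A3 to 10.5 CPM in D1 after. Its stage change was not called (log2 change -0.67, SE 0.59, edgeR adjusted p = 0.288), and its difference between lines had the lowest adjusted p of the tested collagen genes (1.46e-05). Col4a3 and Col4a4, known from the kidney filter, were at most at 0.431 and 0.130 CPM before and 0.589 and 0.635 CPM after.

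Col4a1 and Col4a2 start next to each other on opposite strands of mouse chromosome 8, and their windows are shown because the levels of these genes also went together across lines. The start sites in the RefSeq table lie 21 bases apart and the windows share 78 bases. Col4a1 is on the minus strand at chr8:11312777-11313076 and Col4a2 on the plus strand at chr8:11312555-11312854, with CCAAT boxes in capitals on either strand as above.
Col4a1: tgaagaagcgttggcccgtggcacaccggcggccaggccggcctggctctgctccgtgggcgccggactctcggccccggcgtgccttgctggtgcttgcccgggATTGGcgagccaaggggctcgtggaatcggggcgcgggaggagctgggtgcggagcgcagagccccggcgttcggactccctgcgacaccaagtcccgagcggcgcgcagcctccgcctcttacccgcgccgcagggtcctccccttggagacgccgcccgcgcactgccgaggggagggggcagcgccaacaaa
Col4a2: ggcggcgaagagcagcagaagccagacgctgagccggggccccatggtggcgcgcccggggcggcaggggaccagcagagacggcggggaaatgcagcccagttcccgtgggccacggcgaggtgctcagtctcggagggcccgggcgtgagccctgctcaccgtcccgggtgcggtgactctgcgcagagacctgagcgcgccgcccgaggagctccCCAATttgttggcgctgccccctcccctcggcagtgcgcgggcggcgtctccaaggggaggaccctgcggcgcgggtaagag
The windows hold 37 and 33 CpG dinucleotides and 1 CCAAT box each. The counting's strand setting is not given in the sources used here, and the exons of these genes overlap in part, so reads from the overlap may not be separated. The same holds for Col10a1 with Nt5dc1, Col9a3 with Tcfl5 and Col15a1 with Gm12426, and 13 of the 42 genes have some exon shared with another gene in the GENCODE M21 annotation. Col4a5 and Col4a6 also start on opposite strands of the X chromosome, 1343 bases apart.

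In the beaded filaments of type VI collagen, the first and second chain rose and the third fell in the fit without the block. Col6a1 was at 185 CPM in C3 to 1655 CPM in D4 before (median 484) and at 817 to 2264 CPM after (median 1536), higher in 19 lines. It rose by 1.49 on the log2 scale (SE 0.18, edgeR adjusted p = 6.56e-10). Col6a2 was at 32.9 CPM in C3 to 1212 CPM in D4 before (median 214) and at 318 to 1612 CPM after (median 784), and it rose by 1.59 (SE 0.28, adjusted p = 2.51e-06). Line D4, the highest for both before differentiation, was lower for both after it. Col6a3, the longest of the classical type VI chains, was at 57.9 to 1922 CPM before (median 697) and at 84.9 to 678 CPM after (median 305). It fell by 0.95 (SE 0.37, edgeR adjusted p = 0.0181), but with the line as a replicate block the log2 change was -0.55 with an adjusted p of 0.147. Per kilobase, Col6a1 exceeded Col6a3 by a median factor of 2.24 before and 12.6 at day 8, and the day 8 ratio was at least 6.85 in every line. Col6a4 was at means of 8.07 and 8.24 CPM and not called. Col6a6, which missed the count filter, had a median of 0 CPM before and of 0.174 CPM at day 8, when D5 had 20.3, C6 had 17.95 and the highest other line 13.6 CPM.

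After Col2a1, the steepest falls were those of Col10a1, Col7a1, Col12a1 and Col8a1, which belong to the hexagonal network, anchoring fibril and FACIT classes. Col7a1, the chain of the fibrils that anchor epidermis, was at 20.4 to 365 CPM before (median 36.4, with B3 the highest) and at 3.94 to 11.5 CPM after (median 6.52). It fell by 3.13 on the log2 scale (SE 0.30, edgeR adjusted p = 2.15e-12) with no overlap. Col8a1, a chain of the hexagonal sheets under the corneal endothelium, was at 187 to 498 CPM before (median 298) and at 8.13 to 155 CPM after (median 49.2). It fell by 2.31 (SE 0.27, adjusted p = 3.11e-10), and the highest day 8 line, C6, was the lowest undifferentiated line. Its partner Col8a2 went from 0.0742 to 7.60 CPM (median 0.638) to 0.136 to 110 CPM (median 0.661), so the median did not move. The log2 rise of 3.04 (SE 0.80, edgeR adjusted p = 0.000706) rested on C6 at 110 and D5 at 59.8 CPM, with no other line above 19.1 CPM. The rise was 1.68 without C6 and D5 and 1.11 with the line as a replicate block (edgeR adjusted p = 0.0171 in each). With limma-voom it was 1.00 and not called (adjusted p = 0.237). Col10a1, of hypertrophic cartilage, was rare at 1.13 to 9.14 CPM before and 0.0395 to 0.802 CPM after and fell by 4.01 (SE 0.32, edgeR adjusted p = 6.11e-15).

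Of the FACIT genes, Col12a1, whose chain coats type I fibrils in dense tissue, was at 128 to 942 CPM before (median 503) and at 27.4 to 321 CPM after (median 52.7). It was lower in all 20 lines, by 2.70 on the log2 scale (SE 0.31, edgeR adjusted p = 2.01e-10). The related Col14a1 was at 0.0402 to 4.59 CPM before (median 0.498) and at 0.772 to 114 CPM after (median 2.66), where D5 at 114 and C6 at 93.5 CPM stood above 22.9 CPM in the next line. Its log2 rise was 4.29 (SE 0.70, edgeR adjusted p = 5.35e-07), and 2.75 without C6 and D5 (adjusted p = 1.39e-05). Col16a1 was at 84.8 to 257 CPM before (median 162) and at 20.6 to 463 CPM after (median 70.4), with C6 and D5 the highest after. It was not called at a log2 change of -0.34 (SE 0.31, edgeR adjusted p = 0.304) and fell by 0.92 with the line as a replicate block (adjusted p = 0.018). Col20a1 was higher in all 20 lines, from a mean of 0.944 ± 0.832 to 7.81 ± 6.32 CPM, and Col9a3 in 18, from 0.584 ± 0.179 to 1.17 ± 0.536 CPM. Col22a1 was not called and reached at most 2.08 CPM.

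The multiplexins and a few rare chains rose in every line. Col15a1, whose chain lies at the outer face of basement membranes of muscle and fat, was at 0.344 CPM in A5 to 48.2 CPM in C4 before (median 5.33) and at 41.0 CPM in A5 to 862 CPM in D1 after (median 399). It rose by 5.08 on the log2 scale (SE 0.58, edgeR adjusted p = 2.16e-10), about 33.7-fold, and 1 undifferentiated line, C4, overlapped the day 8 range. Col18a1, the source of endostatin, was at 20.9 to 223 CPM before (median 34.9, with B3 the highest) and at 80.9 to 281 CPM after (median 160), a rise of 1.89 (SE 0.23, adjusted p = 1.47e-09). The transmembrane collagen gene Col23a1 was at 0.0982 to 7.09 CPM before (median 0.438) and at 2.76 to 73.6 CPM after (median 8.04), with C6 the highest before and D5 the highest after. It rose by 3.79 (SE 0.47, edgeR adjusted p = 1.56e-09). Col28a1 was at 0 to 2.63 CPM before and at 2.60 to 115 CPM after (median 9.74), with B4 the highest, and rose by 4.71 (SE 0.54, adjusted p = 2.18e-10). Col17a1, of skin attachment plaques, was not called at means of 0.458 and 0.306 CPM. The 9 genes below the filter, Col4a3, Col4a4, Col6a6, Col9a1, Col9a2, Col13a1, Col19a1, Col24a1 and Col25a1, had means of at most 3.23 CPM, and Col13a1 was listed at 0 in all 20 undifferentiated libraries.

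Ranked per kilobase of transcript, the leading chains changed places between the stages. Before differentiation Col1a1 led with 350 ± 183 CPM per kilobase, followed by Col4a1 with 252 ± 70.0, Col1a2 with 240 ± 164, Col5a2 with 192 ± 51.7 and Col4a2 with 148 ± 46.9. At day 8 Col6a1 led with 386 ± 107 CPM per kilobase, followed by Col3a1 with 384 ± 375, Col1a2 with 318 ± 291, Col1a1 with 305 ± 276 and Col4a1 with 256 ± 67.8. The first 5 at day 8 lay within 1 SD of their neighbours. Col4a1 was in the 5th place with lines C6 and D5 and in the 3rd without them, while the others kept their order. Without these lines (n = 18) Col6a1 had 369 ± 98.9, Col3a1 281 ± 209, Col4a1 261 ± 69.0, Col1a2 249 ± 208 and Col1a1 230 ± 155 CPM per kilobase. Col15a1 moved from the 19th to the 9th place and Col2a1 from the 14th to the 31st.

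**Figure D3:**
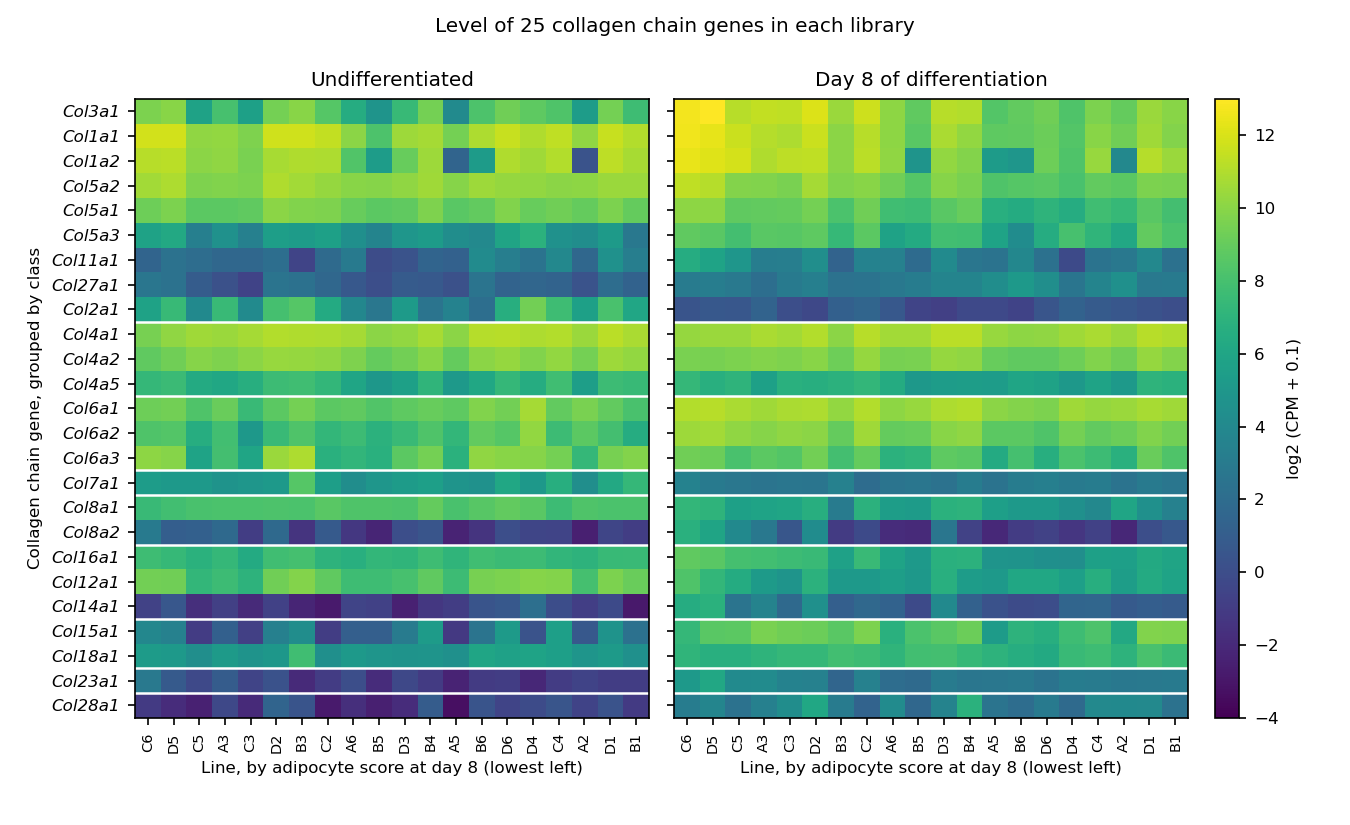
Level as log2 (CPM + 0.1) of the 25 tested collagen genes whose mean reached 10 CPM before or after differentiation, in each of 40 libraries, with classes parted by white lines and lines ordered by their adipocyte score at day 8. The dark cells of Col1a2 are lines A2, A5, B5 and B6 at both stages, and the bright cells of Col14a1 and Col8a2 at day 8 are lines C6 and D5.

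Chains that form a trimer together mostly varied together from line to line, and so did most listed pairs that share no trimer. Of 21 listed pairs, 17 had both genes tested, and Pearson's r of log2 CPM across lines was tested by permutation at both stages, which gave 34 relations adjusted together. Of the 12 pairs that share a trimer, 9 were called before, all with r above 0, and 11 at day 8, of which 10 had r above 0 and 1, Col11a1 with Col11a2, below. Of the 5 pairs of other kinds, 3 were called before and 4 at day 8. Col6a1 and Col6a2 had r = 0.98 before and 0.96 after (Spearman's rho 0.98 and 0.97), the highest at either stage among the pairs that share a trimer. Col4a1 and Col4a2 had r = 0.94 and 0.93 (rho 0.93 and 0.91). Col5a1 and Col5a2 had r = 0.76 and 0.94 (rho 0.74 and 0.92). For comparison, the median r of the 480 other pairs of tested collagen genes, Col1a2 left out, was 0.295 before and 0.298 after. Their upper quartile was 0.511 and 0.632. Their highest r was 0.894 and 0.972, at day 8 above that of every pair that shares a trimer. Whether the trimer pairs differ from these was not tested, and genes in 1 library share its depth and scaling. For Col6a1 with Col6a2 and Col4a1 with Col4a2 the permutation p was 1e-05 at both stages, the smallest that 100000 permutations can give, with an adjusted p of 3.78e-05. Leaving out the 2 lines farthest from the median left r at 0.92 or above in these pairs.

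The pair Col1a1 and Col1a2 fell into separate clusters, so r was computed over the 16 lines with Col1a2 above 100 CPM, a choice made after its values were seen. It was 0.82 before (rho 0.87, permutation p = 6e-05, adjusted p = 0.000157) and 0.95 after (rho 0.89, permutation p = 1e-05, adjusted p = 3.78e-05). Col1a1 and Col3a1, which share fibrils but no trimer, had r = 0.90 and 0.97 over all 20 lines, and their ratio per kilobase had a median of 6.37 before and 0.85 at day 8. Col6a1 and Col6a3 had r = 0.55 before (permutation p = 0.00992, adjusted p = 0.0141) and 0.80 after (p = 3e-05, adjusted p = 9.27e-05), and the value before differentiation was 0.44 without the 2 farthest lines (adjusted p = 0.0888). Col4a5 and Col4a6 had r = 0.64 before (adjusted p = 0.0049) and 0.24 after (adjusted p = 0.346). The difference between the stages was not tested. Col11a1 and Col11a2 had r = -0.58 at day 8 (permutation p = 0.00694, adjusted p = 0.0107), which was -0.37 without C6 and D5 (adjusted p = 0.16). Col8a1 and Col8a2 had r = -0.21 before and 0.51 after (adjusted p = 0.416 and 0.0284), and the latter was 0.31 without C6 and D5 (adjusted p = 0.257). The ratio per kilobase of Col4a1 to Col4a2 stayed between 1.48 and 2.14 before and between 1.62 and 2.42 after in all 20 lines, the smallest ratio of highest to lowest line among the 17 pairs.

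**Figure D4:**
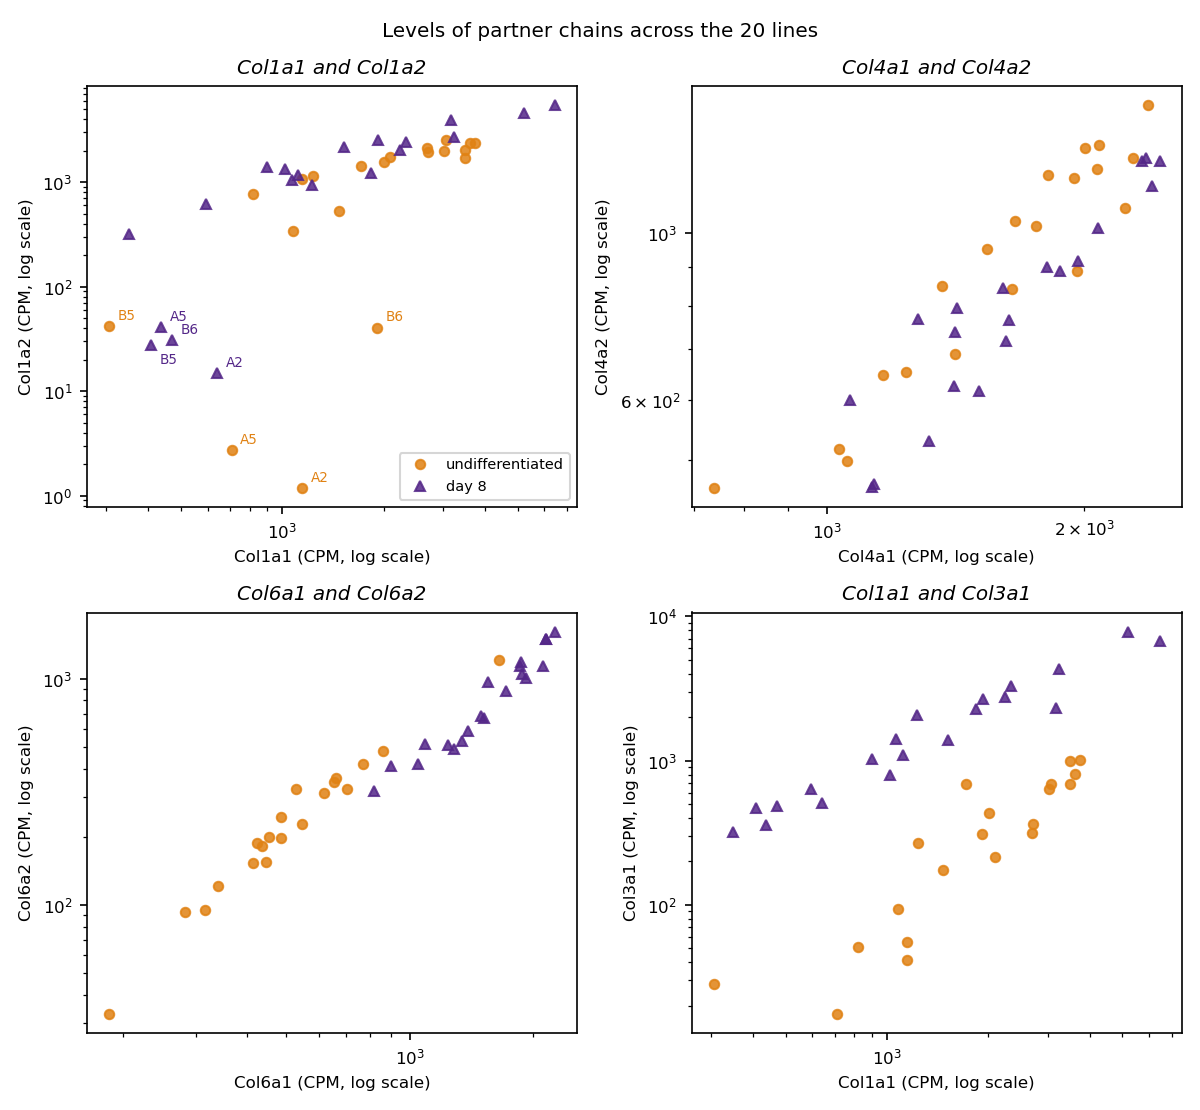
Levels of 4 chain pairs in every library (CPM, log axes), circles undifferentiated and triangles day 8. In the panel of Col1a1 and Col1a2 the 4 labelled lines are at 41.98 CPM or less of Col1a2 while the others are at 318 CPM or more, and in the panel of Col1a1 and Col3a1 the stages form separate bands.

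Some chains differed between lines over both stages. In the fit of stage and line together, 12 of the 33 genes differed between lines (36.4%, against 28.7% of all tested genes). These were Col4a6, Col8a2, Col23a1, Col1a2, Col20a1, Col11a2, Col4a5, Col28a1, Col7a1, Col12a1, Col2a1 and Col1a1, by edgeR with adjusted p from 1.46e-05 to 0.0491. Without C6 and D5, Col12a1 (adjusted p = 0.107) and Col1a1 (0.193) were not called. The level before differentiation was set against the level after it, over lines, by permutation of lines for 33 genes, adjusted over these 33 relations, and 7 were called. The test was not run over all genes; the median r was 0.31 over the 33 genes and 0.32 over all 14081. Col1a2 entered with the 16 lines above 100 CPM only (r = 0.15, not called), so its 4 lines that were low at both stages are not in that value. Col4a6 had r = 0.86 (rho 0.89, permutation p = 1e-05, adjusted p = 0.000165) and Col8a2 had r = 0.85 (rho 0.85, p = 1e-05, adjusted p = 0.000165), and both were still called without C6 and D5 and without the 2 farthest lines. Col23a1 had r = 0.72, Col11a2 0.67, Col20a1 0.65, Col4a5 0.64 and Col2a1 0.61, with adjusted p from 0.0077 to 0.0213. Over the 18 lines without C6 and D5 the adjusted p of these 5 was 0.0577 to 0.107, while r was 0.608 for Col2a1, 0.631 for Col20a1, 0.618 for Col4a5, 0.577 for Col23a1 and 0.526 for Col11a2. Of the abundant chains, Col1a1 had r = 0.435 and Col4a1 0.15 between the stages, neither called.

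At day 8, several collagen genes were lower in the lines with a higher adipocyte score, among them 5 of 10 tested fibrillar genes. In the fit over the 20 differentiated libraries, 12 of 29 tested collagen genes were lower with a higher score (41.4%, against 19.9% of 13248 tested genes) and 2 were higher (6.90%, against 24.7%). The lower ones were Col1a1, Col3a1, Col5a1, Col5a2, Col11a1, Col6a2, Col6a4, Col9a3, Col12a1, Col14a1, Col16a1 and Col23a1. Per unit of score, the log2 change was -0.73 (SE 0.16) for Col1a1, -0.80 (SE 0.20) for Col3a1, -0.85 (SE 0.20) for Col16a1 and -1.64 (SE 0.28) for Col14a1, with edgeR adjusted p of 0.00113, 0.0033, 0.00195 and 0.000155. The higher ones were Col20a1, at 0.75 per unit (SE 0.22, edgeR adjusted p = 0.00986), and Col11a2, at 0.31 (SE 0.10, adjusted p = 0.0213). Without C6 and D5, which hold the lowest scores, 7 of 29 genes were lower (24.1%, against 16.5% of all tested) and 1 was higher (14.4% of all tested). The 7 were Col1a1, Col3a1, Col5a1, Col9a3, Col14a1, Col16a1 and Col23a1, all called in both fits, and the 1 was Col20a1. Col12a1 was then at 0.07 per unit (adjusted p = 0.912), so its relation rested on the 2 lines. Of the fibrillar genes, Col1a2 (-0.71 per unit, edgeR adjusted p = 0.0811), Col2a1, Col5a3 and Col27a1 were not called with the score, nor were Col4a1, Col4a2, Col6a1 and Col6a3. The summed preadipocyte markers at day 8, 122 to 2173 CPM over the lines, moved over a wide range too, and their part in the result was not tested.

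**Figure D5:**
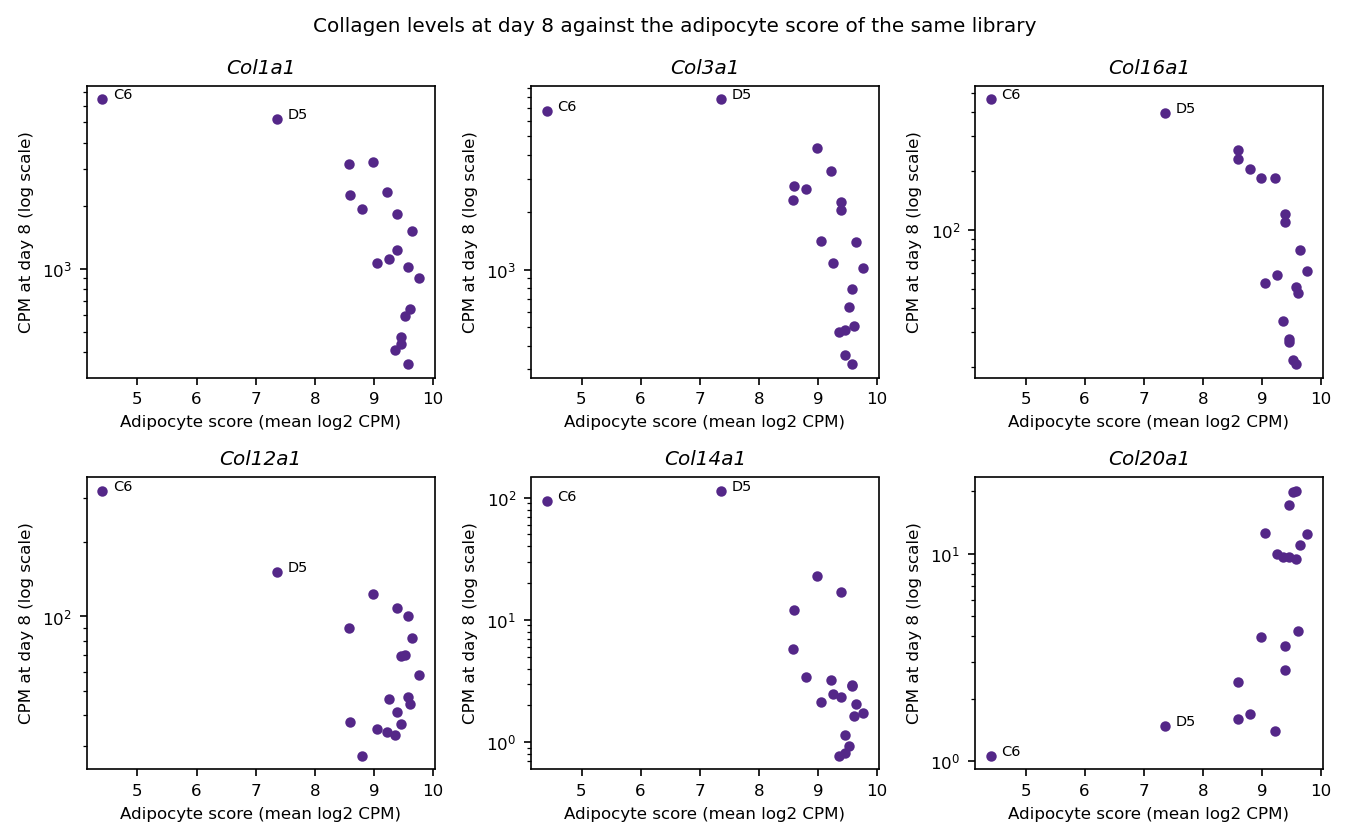
Level at day 8 (CPM, log axis) of 6 collagen genes against the adipocyte score (mean log2 CPM of 18 adipocyte genes) in 20 lines. Lines C6 and D5 lie apart at scores of 4.41 and 7.37; in the other 18 lines Col1a1, Col3a1 and Col16a1 still run down and Col20a1 up, while Col12a1 shows no slope.

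Genes that process or bind collagen were counted in 5 lists, to be read against the 43.1% of all tested genes that were higher and the 39% that were lower. Of 14 tested genes for the hydroxylation of proline and lysine and for glycosylation, 2 were higher, 5 lower and 7 not called. Plod1, a lysyl hydroxylase, rose from 120 ± 18.5 to 210 ± 43.9 CPM, a log2 change of 0.81 (SE 0.08, edgeR adjusted p = 1.27e-11). Plod3, which also adds sugars, fell from 362 ± 60.0 to 216 ± 45.7 CPM. Of 11 tested genes for folding and export, 2 were higher and 8 lower. Serpinh1, the collagen chaperone of the endoplasmic reticulum, fell from 1552 ± 203 to 739 ± 312 CPM, lower in all 20 lines, and Fkbp10, a chaperone of the same compartment, from 478 ± 43.2 to 145 ± 108 CPM. Tmem38b, a cation channel of the endoplasmic reticulum needed for collagen secretion in bone, rose from 17.9 ± 2.04 to 42.3 ± 11.4 CPM.

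Of 7 tested genes for the removal of propeptides, 1 was higher and 4 lower. Tll1, a protease that cleaves the carboxy propeptide, fell from 81.2 ± 48.6 to 0.979 ± 0.548 CPM, by 6.36 on the log2 scale (SE 0.32, edgeR adjusted p = 5.8e-21). Its better known relative Bmp1 was listed at 0 in all libraries. The annotation used for counting is not given, so absent Bmp1 RNA and reads not assigned to this symbol cannot be told apart. Adamts2, which cleaves the amino propeptide, rose from 51.7 ± 22.4 to 119 ± 72.8 CPM, and its relative Adamts14 fell from 83.7 ± 39.6 to 18.5 ± 16.1 CPM. Of 6 genes for cross-linking, Loxl1, Loxl2, Loxl3 and Loxl4 fell, Lox was not called, and Tgm2, a transglutaminase, rose from 12.0 ± 12.8 to 256 ± 142 CPM. Of 10 tested receptor and uptake genes, 3 were higher and 5 lower, near the share of all genes. Itgb1, the integrin chain shared by all collagen-binding integrins, fell from 1523 ± 228 to 697 ± 139 CPM, and Itga1, its partner for type IV collagen, rose from 13.4 ± 7.25 to 34.0 ± 9.39 CPM.

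Lists of marker genes for other collagen-making cells were summed in the same libraries. The 10 pericyte and smooth muscle markers, of which 7 were tested, 5 lower and 2 higher, summed to 1867 to 4767 CPM over lines before and 176 to 1079 CPM after. Acta2, smooth muscle actin, fell from 1957 ± 496 to 157 ± 76.5 CPM, and Rgs5, Kcnj8 and Abcc9 had means of at most 0.487 CPM. The list also holds Cspg4 and Pdgfrb, so these low genes do not stand for all of its pericyte markers. The part of the listed markers in the falls of Col12a1, Col8a1 and Col7a1 was not tested. The 8 endothelial markers summed to 1.62 to 7.88 CPM before and 0.955 to 32.4 CPM after. Of these, 2 were tested, 1 higher and 1 not called, and Cdh5 and Cldn5 were at or near 0. The 7 listed immune markers summed to 3.27 to 7.52 and 1.88 to 9.196 CPM. Of these, 2 were tested, 1 lower and 1 not called, and Ptprc and Cd3e were at or near 0. The 8 osteoblast markers summed to 78.1 to 458 and 43.2 to 362 CPM, with Ibsp and Dmp1 at or near 0. Of these, 4 were tested, 1 higher and 3 lower. The 6 tendon markers, of which 5 were tested, 2 higher and 2 lower, summed to 26.3 to 140 and 25.1 to 307 CPM. The 8 skeletal muscle markers, of which 2 were tested and neither called, summed to 1.24 to 23.0 and 1.46 to 18.4 CPM. Myod1 and Myog were near 0. The 7 Schwann markers summed to 1.08 to 10.6 and 4.86 to 275 CPM, led by Ngfr, with Sox10 near 0. Of these, 4 were tested and all 4 were higher after differentiation, with a median log2 change of 2.85. The part of all these markers in the levels of the collagen genes was not tested.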

How the data were processed

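The deposited files hold whole-number read counts per gene symbol, made by the authors with STAR and HTSeq on build mm9, per the submitters' processing notes. The library kit keeps strand, per the labels' protocols. Whether HTSeq counted by strand, with which annotation and in which version is not given in the sources used here. Of 29912 symbols listed at both stages, 125 that repeat another symbol in a different letter case were left out. HTSeq's tallies of unassigned reads stayed out of library sizes; the tallies for low alignment quality and for unaligned reads are 0 in all day 8 libraries and above 0 in all undifferentiated ones.

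From the counts, edgeR 4.0.16 in R 4.3.3 (filterByExpr with a minimum count of 10, TMM factors, quasi-likelihood fit, prior count 2) tested 14081 genes, with Benjamini-Hochberg adjustment over all of them and a threshold of 0.05. Fits compared the stages without a block, the lines with stage as a term, and the day 8 libraries along the adipocyte score. The labels give the same line name at both stages, which pairs the libraries, and stage-centred profiles of a line's libraries correlated at 0.0721 to 0.545, over 0.1 in 19 of 20 lines. Correlations over lines used log2 CPM and two-sided permutation tests with 100000 resamples. Alternatives were limma-voom (limma 3.58.1), DESeq2 1.42.0, other scalings, other count filters, each line left out, and lines C6 and D5 left out. The fits and correlations were also run on simulated data, which for the stage fit held no differences between lines, unlike these data.

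Collagen genes whose mean reached 10 CPM before or after differentiation are given in full. The members, lists and tests were chosen with earlier results of these data known. Transcript lengths and overlaps come from GENCODE M21 and promoter sequences from RefSeq, neither on the build of the files; no collagen gene shared 10% or more of its 31-base words with a processed pseudogene.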

Additional observations from a re-analysis of the deposited data

How the results depend on the processing

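The 15 collagen genes higher and 9 lower after differentiation became 13 to 15 and 9 to 10 under the other count models, scalings and filters, and 15 and 10 with the line as a replicate block; without a count filter 23 were higher, because more genes were tested. Without lines C6 and D5, 1 gene was higher and 7 were lower with the adipocyte score, and the relation of levels between the stages was called for 2 genes, against 7, with r of Col2a1, Col20a1 and Col4a5 at 0.608, 0.631 and 0.618 over fewer lines; 3 were called without the 2 lines farthest from the median. With limma-voom, Col4a5, Col6a3 and Col8a2 lost their stage call, and Col16a1 and Col17a1 gained one as lower. Leaving out 1 line at a time gave 15 genes higher and 7 to 10 lower after differentiation, and 1 to 2 higher with the score. Signs turned only for values near 0 or carried by C6 and D5. The stage change of Col4a1 was -0.0242 with plain library totals, -0.00409 without C6 and D5 and -0.0168 to 0.0830 on leaving out 1 line. That of Col6a4 was -0.0106, -0.152 and -0.0893 to 0.267 in the same order. Without C6 and D5, Col12a1 changed by 0.0745 per unit of score and Col8a1 and Col8a2 had r = 0.127 before differentiation. The cause was not tested. Genes under 1 CPM rest on few reads, and each line was grown once per stage.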
